A study of Mus musculus with 6 samples.

Results

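The transcriptome of the EB3 (EBRTcH3) line, a parental mouse embryonic stem (ES) cell line, was described on its own from the deposited expression values of 3 cultures named EB3-0, EB3-1 and EB3-2. A gene was counted as on when its mean over these cultures was at least 1 RPKM, which is a gene's read number divided by its cDNA length and by the depth of the library, and 11586 of the 22602 listed genes met this rule. EB3 carries the tetracycline-regulated system at the ROSA26 locus with a Venus reporter but no Sim2-Flag transgene, so no Sim2 protein is induced in it. The cells grew on gelatin without a feeder layer, in a medium with serum and leukemia inhibitory factor (LIF), and the medium held no tetracycline for the last 26 h. The series has 3 further libraries, from clones that carry the Sim2 transgene, and these were not used. The 3 cultures are repeats of 1 line, so their spread does not cover differences between ES cell lines.

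ES cells are derived from the inner cell mass of the blastocyst and can form all tissues of the embryo while dividing without limit in culture. Their state is held by a network of transcription factors around Oct4 (encoded by Pou5f1), Sox2 and Nanog, which bind many of the same enhancers and act on each other's genes. LIF acts through the receptor pair Lifr and Il6st on the kinases of the Jak family and on Stat3, and together with serum it keeps mouse ES cells from differentiating, whereas Fgf4, which the cells secrete, acts through ERK and favours differentiation.

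The values divided back into whole reads for every gene, within a tolerance of 0.01 read, and gave 27292453 reads for EB3-0, 26741213 for EB3-1 and 26100496 for EB3-2. For a cDNA of 2 kb, a level of 1 RPKM then stands for 52.2 to 54.6 reads, and 0 reads in a culture allows a level of up to 0.0575 RPKM (3 reads, counting error only). EB3-1 and EB3-2 were close to each other, with a median absolute log2 difference of 0.07 over the genes on, and EB3-0 stood apart, with 0.27 against each of them. The mean chi-square per gene between the read counts of EB3-1 and EB3-2 was 2.78, where sampling of independent reads alone gives about 1. The libraries were sequenced as paired ends, and whether both mates of a pair were counted is not given in the sources used here. EB3-1 and EB3-2 were counted as separate samples, as they are labelled. In EB3-0 the genes with short cDNAs lay above the other cultures and the genes with long cDNAs below them. The median log2 ratio of EB3-0 to the mean of EB3-1 and EB3-2 was 0.36 for cDNAs of 500 to 1000 bases, -0.01 for 2000 to 4000 bases and -0.73 for 8000 bases or more. The value in each culture, or a value without EB3-0, is therefore given beside the main results that EB3-0 moves.

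**Figure D1:**
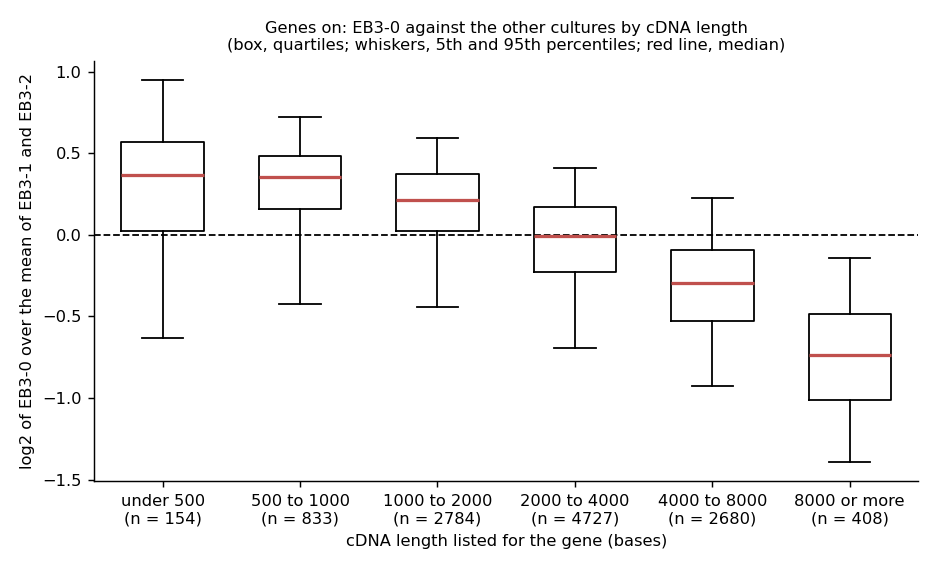
The log2 ratio of EB3-0 to the mean of EB3-1 and EB3-2 (y axis) is drawn for the genes on, in classes of listed cDNA length in bases (x axis), as boxes of the quartiles with whiskers at the 5th and 95th percentiles and a red median. The median goes from 0.37 in 154 genes under 500 bases to -0.73 in 408 genes of 8000 bases or more.

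Levels spanned more than 3 orders of magnitude. In the single cultures 11457, 11631 and 11611 genes reached 1 RPKM, and 11188 reached it in each of the 3. Of the genes on, 6520 had a mean of at least 10 RPKM, 833 of at least 100 and 24 of at least 1000. A further 3094 genes lay between 0.1 and 1 RPKM and 7922 lay under 0.1, of which 5144 were listed at 0 in every culture. The genes on held 99.7% of the summed RPKM, and the 11016 genes under 1 RPKM held 0.317%. The distribution had a broad peak between 10 and 30 RPKM and a shoulder at low levels, and no gap separated them at the threshold. The 3 genes just above it were Zfp672, Gtsf1 and Tmem67 (1.0004, 1.0011 and 1.0018 RPKM), and the 3 just under it were Clca6, Stox2 and Dnase1l1 (0.99948, 0.99807 and 0.99751 RPKM). In each of these 6 genes the 3 cultures fell on both sides of 1.

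**Figure D2:**
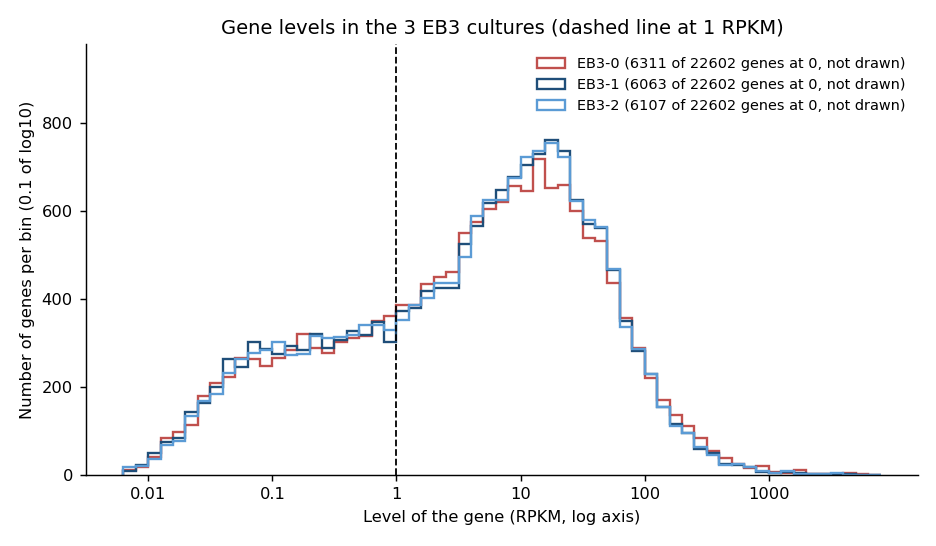
The number of genes (y axis) is drawn by level in RPKM on a log axis (x axis), as one outline per culture, with a dashed line at 1 RPKM and without the genes at 0 (6311 in EB3-0, 6063 in EB3-1 and 6107 in EB3-2). The 3 outlines lie close together, and EB3-0 has fewer genes at the peak and more genes above 100 RPKM.

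The 5 markers that define the cell type were all on, and the lowest of them, Sox2, lay above 99.0% of the listed genes. Pou5f1, the POU-domain factor Oct4, measured 1961, 1590.5 and 1635 RPKM in EB3-0, EB3-1 and EB3-2. Zfp42, which encodes the zinc finger protein Rex1, measured 536, 526 and 511 RPKM. Nanog, a homeodomain factor, measured 335, 365 and 362 RPKM. Esrrb, an orphan nuclear receptor, measured 276, 277 and 284 RPKM, and Sox2, the HMG-box partner of Oct4, measured 245, 255.5 and 269 RPKM. The ranges of neighbours in this order did not overlap, although the lowest Esrrb value and the highest Sox2 value were 276 and 269 RPKM. EB3-0 was the highest culture for Pou5f1 and Zfp42 and the lowest for the other 3, and leaving it out gave a Pou5f1 mean of 1612.5 RPKM.

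Up to 200 bases before the listed start are shown for 3 of these factors, because they carry the letters discussed with the promoter classes (NCBIM37, which is mm9; positions count back from the listed start, and bases inside any annotated transcript are left out). The capitals mark a composite Oct4-Sox2 motif in Nanog (octamer letters next to Sox letters, with 1 letter between them free), and the GC box letters GGGCGG or CCGCCC in the others.
Pou5f1 (chr17:35642784-35642981, plus strand): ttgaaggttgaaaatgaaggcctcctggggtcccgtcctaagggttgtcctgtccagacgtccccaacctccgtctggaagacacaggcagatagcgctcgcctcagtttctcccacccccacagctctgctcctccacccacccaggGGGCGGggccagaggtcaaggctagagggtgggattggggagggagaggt
Nanog (chr6:122657386-122657506, plus strand): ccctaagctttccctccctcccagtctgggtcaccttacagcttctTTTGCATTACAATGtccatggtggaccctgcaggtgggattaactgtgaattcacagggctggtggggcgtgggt
Sox2 (chr3:34548727-34548926, plus strand): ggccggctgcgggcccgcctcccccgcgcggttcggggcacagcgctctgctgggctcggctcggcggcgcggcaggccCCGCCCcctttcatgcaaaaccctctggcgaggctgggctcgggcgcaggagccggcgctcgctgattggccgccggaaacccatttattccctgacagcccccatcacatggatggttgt
The Nanog stretch from -154 to -141 joins the recognition letters of Oct4 and Sox2. These exact letters, with 1 free, were searched from 250 bases before to 50 bases after the start, on both strands. They occurred in 1 of 22599 promoters, that of Nanog. Forms of the composite motif with other letters were not searched, so this count does not show that such motifs are absent elsewhere.

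The wider pluripotency network was on in full, with 35 of 35 listed genes at 1 RPKM or more, beside 51.3% of all listed genes. Each count of a list or family below is to be read beside that 51.3%. All of them also passed a threshold of 2 RPKM, 34 reached 10 RPKM and 19 reached 100 RPKM, and the median was 107 RPKM, beside 12.7 RPKM over all genes on. The highest was Dppa5a, a small RNA-binding protein of the ES cell and the early germ line, at 3155, 2141 and 2099 RPKM. Utf1, a chromatin-associated factor, followed Pou5f1 at 692 ± 131 RPKM (mean ± SD, n = 3, as for all values written this way). L1td1, an RNA-binding protein derived from a transposon, was at 649.6 ± 44.96 RPKM. EB3-0 was the highest culture for Dppa5a and Utf1 and the lowest for L1td1.

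Receptors, cofactors and further transcription factors of the network lay lower. Tdgf1, the coreceptor Cripto of Nodal, was at 415 ± 48.1 RPKM, and Lin28a, which blocks the maturation of let-7 microRNAs, at 227 ± 19.8 RPKM. Nr0b1, the orphan receptor Dax1, was at 201.4 ± 6.34 RPKM. The Krüppel-like factors, which can replace each other in the network, were ordered Klf2, Klf5 and Klf4, at 172, 88.7 and 63.3 RPKM. The order of Klf5 and Klf4 held in each culture (the Klf5 values were 68.5, 97.97 and 99.6 RPKM), while the distance between them was smallest in EB3-0. At the lower end stood Dppa3, the maternal factor Stella, at 17.3 ± 3.43 RPKM, and Prdm14, which represses Fgf receptors and the de novo methylases, at 9.54 ± 1.24 RPKM. Genes for 2 large proteins of this list, Tet1 at 35.8, 90.6 and 93.9 RPKM and Rif1 at 39.3, 85.3 and 84.3 RPKM, differed most between EB3-0 and the others, and they belong to the long cDNAs described above.

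Genes of the next developmental steps were mostly measurable but lower. Of 13 genes of the formative and primed epiblast, 11 were on, with a median of 7.84 RPKM. Dnmt3b, a de novo DNA methylase, led at 95.9 ± 6.13 RPKM, followed by the TGF-beta ligand Nodal at 73.1 ± 13.04 RPKM and the tight junction protein Cldn6 at 28.1 ± 4.19 RPKM. Otx2, a homeodomain factor of the formative state, was at 11.2 ± 1.57 RPKM, and Pou3f1 (Oct6) at 7.84 ± 1.36 RPKM. Fgf5, the most used marker of the primed epiblast, was at 0.147, 0.164 and 0.368 RPKM, and Cer1, a secreted antagonist made by visceral endoderm, was at 0 in EB3-0 and EB3-1 and at 0.0440 RPKM in EB3-2. Zscan4d, of the rare state that resembles the embryo after its first division, was at 2.82 ± 0.693 RPKM. In the list of that state 4 of 8 genes were on (50%, beside 51.3% of all listed genes). Eif1a led that list at 163 ± 21.3 RPKM, and it encodes a translation initiation factor.

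Of 12 germ cell genes 11 were on, at low levels with a median of 5.92 RPKM. Tex19.1, which acts against retrotransposons, stood apart at 69.1 ± 18.1 RPKM. Kit, the receptor of stem cell factor, was at 9.1 ± 0.506 RPKM, and Sycp3, a component of the meiotic axis, at 7.61 ± 0.619 RPKM. The RNA helicase Ddx4 (Vasa) was at 4.93 RPKM, and Tdrd1, a Tudor protein of the piRNA pathway, was under the threshold at 0.525 ± 0.0835 RPKM.

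Genes that mark differentiated lineages were mostly under 1 RPKM. Of the 59 genes in the lists of neural ectoderm, mesoderm, endoderm and trophoblast, 19 were on, 23 lay between 0.1 and 1 RPKM and 17 under 0.1 (Eomes stands in 2 of the lists). Their median was 0.33 RPKM, beside 1.19 RPKM over all listed genes. The count was 19 without any single culture, 25 at a threshold of 0.5 RPKM and 12 at 2 RPKM, so 7 of the 19 lay between 1 and 2 RPKM. Several members that were on are not restricted to their lineage. Tubb3, a beta-tubulin used as a neuronal marker, was at 123 ± 10.1 RPKM in a family of 17 tubulins of which 13 were on, and the laminin chain Lamb1 was at 22.97 ± 1.99 RPKM. In the neural list Neurod1, a bHLH factor of neurons and endocrine cells, was at 9.58, 16.7 and 14.3 RPKM, and Nes, an intermediate filament of progenitors, at 5.93 ± 0.158 RPKM. Pax6, a factor of eye and forebrain, was at 3.63 ± 0.676 RPKM, and Sox1 at 1.36 RPKM. Among the regulators of the other lineages, T (Brachyury) was at 0.143, 0.493 and 0.412 RPKM, the trophectoderm factor Cdx2 at 0.273, 0.418 and 0.357 RPKM, and Sox17 of definitive endoderm at 0.117, 0.0239 and 0.0245 RPKM. All 3 were under 0.5 RPKM in every culture, but they were picked after their values were seen. Gata6 was at 0.562, 0.222 and 0.156 RPKM and Foxa2 at 0.138, 0.316 and 0.36 RPKM. Other regulators in these lists were on, Ascl2 (trophoblast) at 5.74 RPKM, Meox1 and Mesp2 (mesoderm) at 2.23 and 1.83 RPKM, and Eomes at 1.15 RPKM. The highest mesoderm gene was the bHLH factor Twist1 at 2.92 ± 0.568 RPKM, and the highest trophoblast gene was Tead4 at 8.27 ± 2.18 RPKM, a Hippo pathway factor. Afp, Ttr, Pdx1, Hand2, Msgn1, Tpbpa and Prl3d1 were listed at 0 in all cultures.

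Most markers of other cells that a dish could hold were near 0. In the list of fibroblast and feeder genes 2 of 12 were on, Vim at 158 ± 7.98 RPKM and Thy1 at 11.4 ± 1.72 RPKM. Which cells these reads came from was not tested. The collagen genes Col1a1, Col1a2 and Col3a1, which fibroblasts express strongly, were at 0.12, 0.0097 and 0.0202 RPKM, and Lum and Postn were listed at 0. The genes of this list summed to between 164 and 182 RPKM per culture, nearly all from Vim. In the blood list 2 of 9 were on, Cd34 at 3.69 ± 0.298 RPKM and Cd3e at 1.69 ± 0.174 RPKM, and Ptprc, Lyz2 and both globin genes were listed at 0. For the globin gene Hba-a1, 78.5% of the 50-base stretches of the transcript recur elsewhere in the genome, and the part of this in its listed 0 was not tested.

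**Figure D3:**
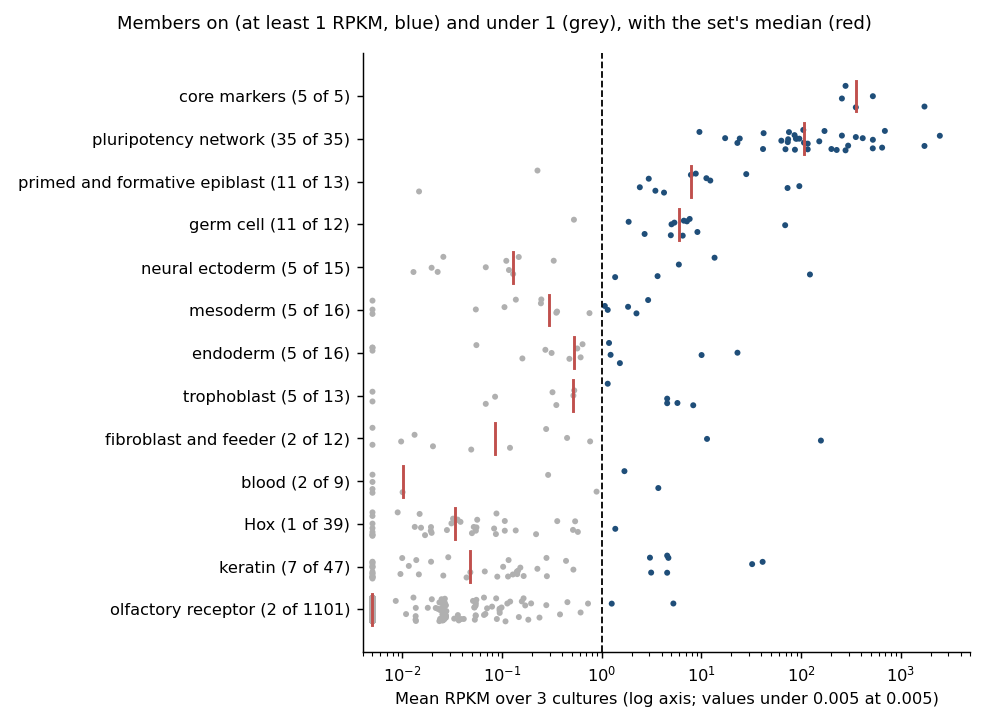
Each point is a listed gene, at its mean RPKM over the 3 cultures on a log axis (x axis), in rows by gene list or family (y axis, with the number on of the number listed), blue at 1 RPKM or more and grey below, with a red line at the median of the row. All 35 pluripotency genes lie right of the dashed line at 1 RPKM, and 2 of 1101 olfactory receptor genes do.

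The LIF pathway was on in 22 of 24 genes. Of its receptors, Il6st (gp130) was at 22.4 RPKM and Lifr at 11.1 RPKM. Of the transducers, Jak1 was at 10.7 RPKM and Jak2 at 1.27 RPKM, and Stat3 at 42.03 ± 2.69 RPKM was the highest of 7 Stat genes. Among the feedback inhibitors, Socs3 and Socs2 were at 103 ± 6.89 and 69.9 ± 9.38 RPKM, above both receptors, and Cish and Socs1 at 5.25 ± 0.115 and 2.66 ± 0.634 RPKM, below them. The target kinases Pim3 and Pim1 were at 156 ± 16.5 and 62.1 ± 7.09 RPKM. The receptor subunits Il6ra and Osmr of related cytokines were under 1 RPKM, at 0.363 ± 0.19 and 0.0675 ± 0.0253 RPKM. Lif itself was at 2.64 RPKM.

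The FGF and ERK pathway was also on in 22 of 24 genes. The ligand Fgf4 was nearly even over the cultures at 86.7, 85.5 and 87.9 RPKM, and in its family of 22 ligands 6 were on, with Fgf17 second at 61.1 ± 6.65 RPKM. Fgfr1 was the main receptor at 19.2 RPKM, with Fgfr2 at 3.11 RPKM and Fgfr3 at 0.577 ± 0.0756 RPKM. Downstream, the kinase gene Mapk3 was at 66.5 RPKM. Genes that ERK activity induces stood at the top of the list: Etv5, an ETS factor, was at 173, 177 and 177 RPKM and the inhibitor Spry2 at 96.5, 101 and 102 RPKM.

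The Wnt pathway had 17 of 19 genes on, with Ctnnb1 (beta-catenin) at 364 ± 24.7 RPKM. The ligands were low: 4 of 19 Wnt genes were on, led by Wnt7b at 3.6 ± 0.654 RPKM, while 6 of 10 Frizzled receptor genes were on, led by Fzd5 at 32.7 ± 5.28 RPKM. Of the DNA-binding factors, Tcf7 and the repressor Tcf7l1 (Tcf3) were at 23.7 and 18.9 RPKM. Wls, which carries Wnt proteins to the cell surface, was at 0.597 ± 0.187 RPKM.

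In the TGF-beta and BMP list 24 of 28 genes were on. The ligands Gdf3, Nodal and Bmp4 were at 107 ± 3.38, 73.1 ± 13.04 and 55.8 ± 1.02 RPKM, and the Nodal antagonists Lefty1 and Lefty2 at 71.9 and 44.4 RPKM. Bmp4 and Bmp8a were the members on among 11 Bmp genes, and Bmp8a was at 1.45 ± 0.659 RPKM. The type II TGF-beta receptor gene Tgfbr2 was low at 0.151 ± 0.0624 RPKM while the activin receptor genes Acvr1b and Acvr2b were at 12.2 and 7.18 RPKM. Id1, a BMP target that blocks bHLH factors, was at 110.0 ± 7.18 RPKM. In the Notch and Hedgehog list 17 of 21 genes were on. The Hedgehog ligands Shh, Ihh and Dhh were all under 1 RPKM, at 0.0462, 0.22 and 0.485 RPKM, while the factor Gli1, itself a target of the pathway, was at 39.3 ± 5.89 RPKM and the receptor Ptch1 at 10.6, 22.9 and 23.7 RPKM.

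In the families of developmental transcription factors a few members stood above the rest. In the Pou family Pou5f1 stood above Pou2f1 (Oct1), at 13.8 ± 5.7 RPKM. There 7 of 15 genes were on (46.7%, beside 51.3% of all listed genes). In the Sox family 11 of 19 were on (57.9%). Sox2 was followed by Sox12 at 38.9 ± 1.61 RPKM and Sox15 at 24.9 ± 8.11 RPKM. All 4 Sall genes were on, led by Sall4 at 85.9 ± 4.8 RPKM, and 3 of 5 Zic genes were on. In the T-box family 2 of 16 were on, Tbx3 at 22.9 ± 2.13 RPKM and Eomes at 1.15 ± 0.121 RPKM. In the Fox family 22 of 44 were on (50%), near the share over all listed genes. The highest was Foxh1, the partner of Smad2 in Nodal signalling, at 60.6 ± 3.3 RPKM. Of 13 Nkx genes 3 were on, Nkx6-2 at 13.3 ± 1.52 RPKM, Nkx6-3 at 11.3 ± 1.23 RPKM and Nkx2-9 at 6.97 ± 0.488 RPKM.

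Several families that pattern the later embryo had few or no members on. Of 39 Hox genes 30 were under 0.1 RPKM and 1 was on, Hoxc13 at 1.1, 1.72 and 1.28 RPKM. In the Gata family 1 of 6 was on, Gata2 at 1.28 ± 0.121 RPKM. In the Pax family 2 of 9 were on, Pax6 at 3.63 ± 0.676 RPKM and Pax8 at 3.59 ± 0.38 RPKM, and in the Lhx family 1 of 8, Lhx6 at 1.87 ± 0.208 RPKM. No Irx or Dlx gene reached 1 RPKM, and the highest of the 12 was Irx2 at 0.922 ± 0.0964 RPKM. In the nuclear receptor family 21 of 47 were on (44.7%, beside 51.3% of all listed genes). Esrrb and Nr0b1 were followed by the retinoic acid receptor Rarg at 173 ± 17.1 RPKM.

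Chromatin regulators were on almost throughout. In the DNA methylation list 12 of 14 genes were on, led by Dnmt3l, the catalytically inactive partner of the de novo methylases, at 334, 327 and 342 RPKM. The maintenance methylase Dnmt1 and its cofactor Uhrf1 were at 59.3 and 131 ± 7.68 RPKM. Among the dioxygenases that oxidise methylcytosine, Tet1 and Tet2 were on, at 73.4 and 23.0 RPKM (92.2 RPKM for Tet1 without EB3-0), and Tet3 was under the threshold at 0.71 ± 0.226 RPKM. The glycosylase gene Tdg was at 0.377 ± 0.061 RPKM, but 93.6% of its transcript's 50-base stretches occur elsewhere in the genome, a property taken up with the ribosomal protein genes. Polycomb genes were on in 25 of 27, with the core subunits Eed, Ezh2 and Suz12 at 124, 53.8 and 51.2 RPKM. Cbx7 was the highest of the Polycomb chromodomain subunits at 132 ± 4.24 RPKM, and Cbx8 was under 1 RPKM at 0.959 ± 0.146 RPKM. Jarid2 and Phc1 were at 152 ± 17.6 and 182 ± 2.65 RPKM.

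Most genes of proliferation and metabolism were on. In the cell cycle list 34 of 37 genes were on, led by the kinase Cdk4 at 513 ± 48.2 RPKM and the tumour suppressor gene Trp53 at 265 ± 31.9 RPKM. The G1 cyclins Ccnd3, Ccne1 and Ccnd1 were at 194, 172 and 123 RPKM, while the retinoblastoma genes Rb1, Rbl1 and Rbl2 were at 3.88, 4.199 and 3.26 RPKM. The Ink4 inhibitors Cdkn2a and Cdkn2c were at 5.65 and 0.339 RPKM. In the apoptosis list 20 of 23 were on, with the effector Bax at 389.5 ± 73.98 RPKM and the protective Mcl1 at 234 ± 6.85 RPKM, while Bcl2 was at 0.195 ± 0.0345 RPKM and Casp8, the initiator caspase of death receptors, at 0.338 ± 0.0713 RPKM. In the glycolysis list 22 of 32 were on, and the isoforms Eno2, Ldhc and Gapdhs of neurons and sperm were under 1 RPKM at 0.988, 0.943 and 0.733 RPKM. All 17 genes of threonine and one-carbon metabolism were on. Tdh, the threonine dehydrogenase on which mouse ES cells depend, was at 296 ± 29.9 RPKM, and Psat1 of serine synthesis at 363 ± 46.2 RPKM. All 10 telomere genes were on, from Dkc1 at 153 ± 9.83 RPKM to the telomerase gene Tert at 3.79 RPKM.

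In the adhesion list 18 of 20 genes were on. Of 24 cadherin genes 4 were on, with Cdh1 (E-cadherin) at 106 ± 7.69 RPKM, Cdh3 at 7.99 ± 0.347 RPKM and Cdh2 (N-cadherin) at 1.53 RPKM. Of 20 connexin genes 6 were on, led by Gja1 at 102 ± 19.03 RPKM, and of 25 claudin genes 7, led by Cldn4 at 85.6 ± 2.55 RPKM. Of 43 collagen genes 7 were on, and Col18a1 at 61.01 ± 1.38 RPKM was the highest, with Col9a3 next at 2.71 ± 0.105 RPKM. Of 47 keratin genes 7 were on, led by Krt42 at 41.1 ± 3.13 RPKM and Krt17 at 32.2 ± 0.726 RPKM.

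The 30 most abundant genes ranged from 852 to 4280 RPKM and held 11.99 ± 1.21% of the summed RPKM. The first 10 held 6.42 ± 0.816% and the first 100 held 21.4 ± 1.89%. Counted in reads rather than RPKM, which gives long transcripts their weight, the same 10 genes held 3.20 ± 0.525% and the same 100 genes 12.9 ± 1.66%. First stood Eef1a1, the elongation factor that brings tRNA to the ribosome, at 4794, 4090.3 and 3955 RPKM. It was followed by the ribosomal protein gene Rpl8 at 5046, 3307 and 3350.2 RPKM and the chaperone gene Hsp90ab1 at 4017, 3346 and 3288 RPKM. The list held 9 ribosomal protein genes, the translation factors Eif5a and Eef2, the cytoskeletal genes Actb, Tubb5, Pfn1, Cfl1 and Tmsb4x, and the glycolytic genes Pkm2 and Ldha. Dppa5a in sixth place and Pou5f1 in the ninth were the 2 genes of the pluripotency network among them.

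EB3-0 was the highest culture in 28 of these 30 genes, with Ptma and Npm1 as the exceptions. In EB3-0 645 genes held 50% of the summed RPKM, against 829 in EB3-1 and 831 in EB3-2. The first 10 genes held 7.36% in EB3-0 and 5.96% and 5.94% in the others. Without EB3-0 the mean share was 5.96% for the first 10 and 20.3% for the first 100.

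**Figure D4:**
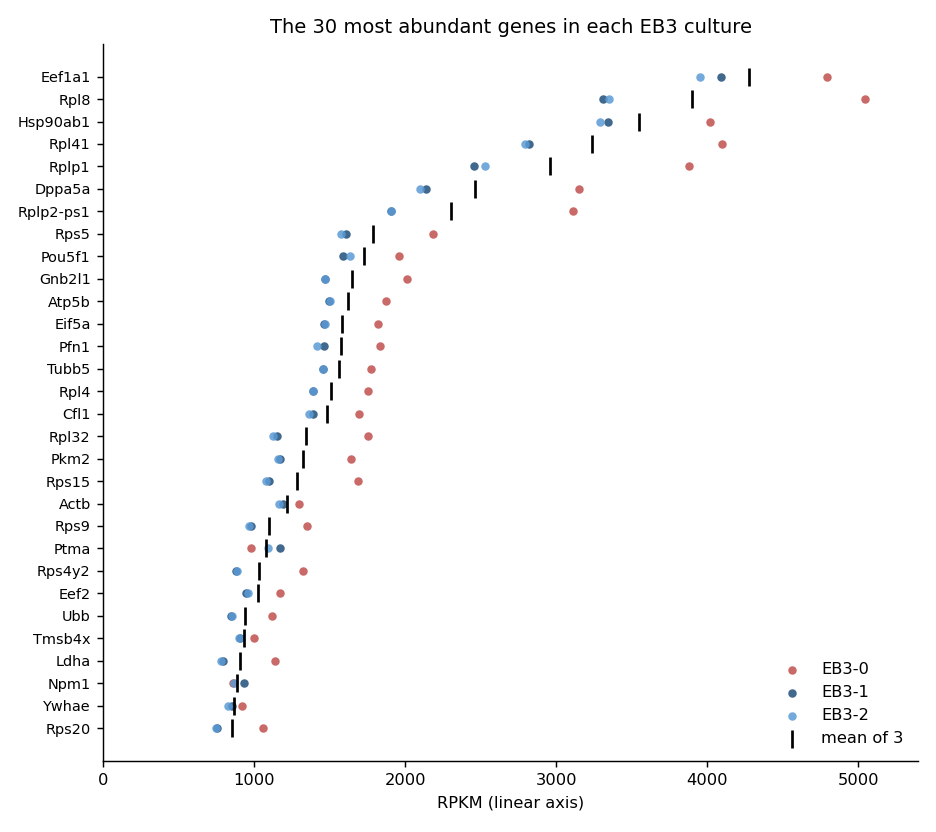
The 30 genes with the highest mean RPKM (y axis) are drawn with their RPKM in each culture on a linear axis (x axis), EB3-0 in red, EB3-1 in dark blue and EB3-2 in light blue, and a black tick at the mean. In 28 genes the red point lies right of both blue points, which lie close together.

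The genes of the cytosolic ribosomal protein family were listed at very unequal levels. Of 83 genes 82 were on, from Rpl29 at 4.18, 3.79 and 4.48 RPKM to Rpl8 at 3901 RPKM, and together the 83 held 6.73 ± 0.966% of the summed RPKM, or 6.17% without EB3-0. Among the 81 of them with a matched transcript, the 90th percentile lay 71.8-fold above the 10th. The same ratio was 12.3 for 37 proteasome genes, 8.22 for 41 genes of respiratory complex I, 5.77 for 74 mitochondrial ribosomal protein genes and 2.33 for the 8 chaperonin genes on. The chaperonin genes, which encode the ring subunits of CCT, ranged from 197 to 672 RPKM. The proteasome genes were led by Psmb4 at 284 ± 46.9 RPKM. Of the inducible subunits of immune cells, Psmb8 and Psmb9 were at 0.143 and 1.08 RPKM, while Psmb10 was at 30.1 ± 5.46 RPKM.

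Ribosomal protein genes also differ from other genes in how much of their sequence recurs in the genome. Processed copies, made by reverse transcription of the mRNA, have left many intronless pseudogenes. For each gene the 50-base stretches of the transcript nearest to the listed cDNA length were looked up in the genome outside the gene. More than 50% of these stretches recurred elsewhere in 52 of the 81 ribosomal protein genes, and in 382 of 11449 genes on with a matched transcript (3.34%). The 9 ribosomal protein genes with under 25% recurring stretches had a median of 304 RPKM, the 42 genes with 25 to 75% had 86.3 RPKM and the 30 genes with over 75% had 28.2 RPKM. Across the 81 genes the Spearman correlation between level and recurring share was -0.40, which is a description over genes that share libraries and evolutionary history. The classes overlapped widely, from 30.4 to 3901 RPKM in the first and from 4.15 to 738 RPKM in the last. In the proteasome genes, 22 of 37 of which had no recurring stretch, the correlation was -0.06. It was -0.17 in 74 mitochondrial ribosomal protein genes and -0.11 in 41 genes of respiratory complex I. Positive values were 0.36 in 13 tubulin genes, 0.34 in 10 replacement histone genes and 0.32 in the 35 pluripotency genes. In 54 initiation factor genes the correlation was 0.28. Single genes with much recurring sequence were also high, as Eef1a1 with 73.2%, Ptma with 92.1% at 1081 ± 94.1 RPKM and Tuba1b with 82.7% at 807 ± 130.2 RPKM. How the authors' pipeline placed reads with several equal positions is not given in the sources used here, and its part in these levels was not tested. The mapping also did not split reads at exon junctions. A median of 59.3% of the 100-base windows of a transcript crossed a junction in ribosomal protein genes. This median was 57.4% in proteasome genes and 29.9% over all genes on. The correlation of level with this share was -0.20 in ribosomal protein genes and 0.11 in proteasome genes, and its part was not tested.

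**Figure D5:**
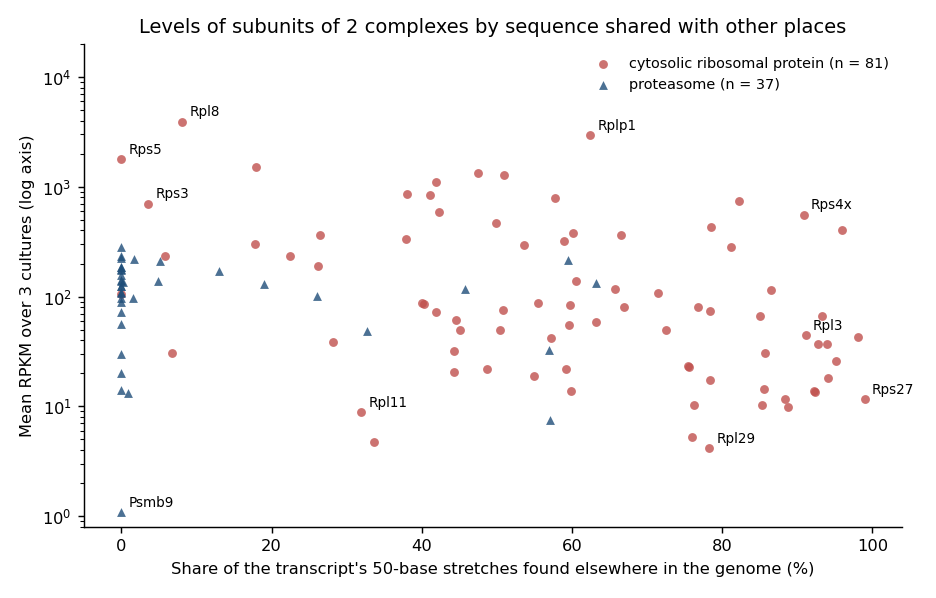
Mean RPKM on a log axis (y axis) is drawn against the percentage of the transcript's 50-base stretches that occur elsewhere in the genome (x axis), for 81 cytosolic ribosomal protein genes (red circles) and 37 proteasome genes (blue triangles) that were on. Most proteasome genes sit at or near 0% and above 50 RPKM, while the ribosomal protein genes spread over the whole width, with Rpl8 high on the left and Rpl29 low on the right.

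Gapdh, a glycolytic enzyme that is often taken as a reference gene, was among the genes with most recurring sequence. It was listed at 16.4, 16.9 and 17.1 RPKM, far under other enzymes of the pathway, such as Aldoa at 795 ± 208 RPKM, Tpi1 at 342 ± 93.9 RPKM and Pkm2 at 1323 ± 277 RPKM. Of its 50-base stretches 93.9% recurred elsewhere, as did 92.7% in Pgk1 (56.1 ± 12.3 RPKM) and 91.9% in Pgam1 (121 ± 12.1 RPKM), beside 14.2% in Aldoa, 23.6% in Tpi1, 29.5% in Ldha and 44.8% in Pkm2. Over the 22 glycolysis genes on, level and recurring share did not run against each other. The 16 genes with under 25% had a median of 50.6 RPKM, the 3 with 25 to 75% had 903 RPKM and the 3 with over 75% had 56.1 RPKM, and the Spearman correlation was 0.48. Each of 20 consecutive coding stretches of 50 bases of Gapdh occurred in at least 11 places of the genome, and the stretch from coding base 601 to 650 in 63 places on 20 chromosomes. In Rpl8 14 of 15 coding stretches occurred in at most 1 place. A stretch of each is shown, in lower case without marked bases, since every base of it is shared with all of its places.
Gapdh, coding bases 601 to 650, 63 places: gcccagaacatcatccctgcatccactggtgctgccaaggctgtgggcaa
Rpl8, coding bases 401 to 450, 1 place: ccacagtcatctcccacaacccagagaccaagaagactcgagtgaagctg

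Some intronless relatives of these genes were themselves listed at high levels. Rplp2-ps1, a row of 825 bases on chromosome 12 (76731912 to 76732736, minus strand) with no intron, was at 3111, 1904 and 1903 RPKM, 27.6 times the level of the parent gene Rplp2 at 102, 72.8 and 76.2 RPKM on chromosome 7. Its sequence holds the whole coding sequence of Rplp2, with 346 of 348 bases identical. Rps4y2, also without an intron, on chromosome 6 (148303178 to 148304118, plus strand), was at 1320.1, 882 and 887 RPKM, above Rps4x of the X chromosome at 685, 494 and 491 RPKM. Here 629 of 792 coding bases were identical, 79.4%, and 15.8% of the stretches of Rps4y2 recurred elsewhere. The first 90 coding bases of the first pair and coding bases 31 to 120 of the second are shown, with the bases that differ within a pair in capitals.
Rplp2: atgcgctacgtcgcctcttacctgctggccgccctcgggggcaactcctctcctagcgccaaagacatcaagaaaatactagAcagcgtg
Rplp2-ps1: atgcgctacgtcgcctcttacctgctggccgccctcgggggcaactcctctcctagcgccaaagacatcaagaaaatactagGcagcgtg
Rps4x: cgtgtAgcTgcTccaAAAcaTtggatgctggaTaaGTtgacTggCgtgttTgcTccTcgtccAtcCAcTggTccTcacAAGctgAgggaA
Rps4y2: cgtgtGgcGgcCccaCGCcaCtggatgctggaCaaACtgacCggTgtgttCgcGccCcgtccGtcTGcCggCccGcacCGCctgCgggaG
The first pair differed at 1 of the 90 bases shown and the second at 26 of 90. Whether the reads listed for Rplp2-ps1 came from it or from Rplp2 cannot be told apart at bases where they are identical. Of the 100-base windows of the transcript, 70.6% cross an exon junction in Rplp2 and 62.2% in Rps4x. The share is 0% in Rplp2-ps1 and Rps4y2. The mapping did not split reads at junctions, and the part of this in the levels of each pair was not tested. Among rows at 100 RPKM or more, 35 had no intron, and 15 of these carry names of predicted genes or pseudogenes.

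Large families of tissue-restricted genes were off. Of 1101 olfactory receptor genes 1017 were listed at 0 and 2 were on, Olfr985 at 4.73, 5.73 and 5.22 RPKM and Olfr1494 at 0.696, 1.42 and 1.66 RPKM. Olfr986, next in level at 0.727 ± 0.318 RPKM, has the next number to Olfr985. Of 324 vomeronasal receptor genes 2 were on, Vmn1r47 at 1.43 ± 0.29 RPKM and Vmn1r53 at 1.42 ± 0.124 RPKM, and of 38 taste receptor genes 1 was on, Tas1r1 at 2.66 ± 0.222 RPKM. No beta-defensin or keratin-associated protein gene of 41 and 51 reached 1 RPKM. Of 52 interferon and interleukin genes 4 were on, led by Il17d at 10.1 ± 1.12 RPKM, and of 12 Toll-like receptor genes 1 was on, Tlr2 at 4.66 ± 0.622 RPKM. Of 97 cytochrome P450 genes 7 were on, led by Cyp51 of cholesterol synthesis at 21.7 ± 2.86 RPKM. Among the genes listed at 0, 530 of 4762 with a matched transcript (11.1%) had more than 50% recurring stretches, beside 4.87% over all listed genes.

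Replication-dependent histone genes, whose mRNAs lack a poly(A) tail, were listed low, with 26 of 66 on. Their highest level was 27.2 ± 3.54 RPKM, in Hist1h2bc. The libraries were made from poly(A) RNA, so these levels do not measure the full amount of such mRNAs. All 10 genes for replacement histones were on, and H2afx and H3f3b were at 668 ± 160.3 and 327 ± 3.6 RPKM. All 6 subunits of the Mcm2-7 helicase were above 100 RPKM, led by Mcm2 at 226 ± 10.98 RPKM.

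Genes that bear on the identity of the line were also read. The ROSA26 transcript Gt(ROSA)26Sor was at 1.96, 5.14 and 4.01 RPKM. Sim2, the gene that the other clones of the series carry as a transgene, was at 0.13, 0.0917 and 0.104 RPKM. Hprt, the purine salvage gene, was at 0.679, 0.471 and 0.625 RPKM, which placed it under the threshold. Of the Y-linked genes, Eif2s3y, Ddx3y and Uty were on, at 16.6, 20.7 and 18.8 RPKM, 6.51, 15.4 and 13.9 RPKM and 2.14, 4.75 and 4.41 RPKM, while Kdm5d was at 0.0135 ± 0.0134 RPKM and Sry was listed at 0. Xist was at 0.777, 1.64 and 1.51 RPKM and its antisense partner Tsix at 4.19, 7.29 and 7.14 RPKM. The library kit does not mark the strand, so reads from the bases that Xist and Tsix share cannot be told apart. EB3-0 was the lowest culture for each of these genes that was on. On the X chromosome 387 of 1000 genes were on, and on the autosomes the share ran from 42.6% on chromosome 6 to 58.9% on chromosomes 5 and 8.

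The levels were stable between EB3-1 and EB3-2 and less so with EB3-0. The median SD of log2 RPKM over the 3 cultures was 0.17 and it was 0.05 without EB3-0. The highest value was under 1.5 times the lowest in 81.3% of the genes on, and in 98.9% without EB3-0. When each library's trend on cDNA length was removed, the median SD was 0.13 and the share was 88.4%.

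Gene groups differed in the side on which EB3-0 lay. All 17 aminoacyl-tRNA synthetase genes were on and highest in EB3-0, as were 71 of 82 ribosomal protein genes and 39 of 41 genes of complex I. Over all genes on, 5201 of 11586 were highest and 5262 lowest in EB3-0. Those highest were 678 of 833 genes at 100 RPKM or more and 667 of 833 genes with cDNAs of 500 to 1000 bases, and the part of level and length in the counts of these groups was not tested. In the family of genes named Zfp, which encode zinc finger proteins, 219 of 293 genes on were lowest in EB3-0, with a median log2 ratio of -0.34, beside 0.00 over all genes on. The 5 core markers had SDs of log2 between 0.02 and 0.16.

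Among the 6520 genes with a mean of at least 10 RPKM, the most even were Swap70 at 18.470, 18.471 and 18.478 RPKM, 2310045N01Rik, Eif2a, Ctage5 and Ube3b, followed by Mpzl1, Nup93, Ufd1l, Hexim1 and Ankrd13a. Their SDs of log2 were at most 0.00565. Because they were picked by this SD, EB3-0 had to lie next to the other cultures in each, with a log2 ratio within 0.01 of 0. With the trend on cDNA length removed, their SDs ran from 0.0162 in Mpzl1 to 0.193 in Ube3b, and that of Swap70 was 0.118. The 10 most variable genes had their lowest value in EB3-0 without exception. These were also picked by the SD, in a set of cultures where EB3-0 stood apart. With the trend on cDNA length removed, their SDs ran from 0.279 in Dst, where it was 1.01 before, to 1.39 in Zbed6. Zbed6, a transcription factor gene derived from a DNA transposon, was at 3.4, 23.05 and 21.9 RPKM, Gm14124 at 4.35, 17.3 and 18.04 RPKM and Arhgap5, a GTPase-activating protein, at 5.87, 20.4 and 22.3 RPKM. They were followed by Dst, Tnks, Ccnt1, Eif2c2, Gatad2b, Casc5 and Arid5b. In EB3-1 and EB3-2 the values lay close together, as in Tnks with 13.96 and 13.4 RPKM. Between EB3-1 and EB3-2 the gene with the largest ratio at this level, chosen after its values were seen, was Wfdc2 at 22.6, 11.4 and 7.68 RPKM.

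Promoter letters differed with level. The window from 250 bases before to 50 bases after the listed start was read for 22599 genes. The CpG ratio, the number of CG pairs relative to that given by the C and G content, had a median of 0.174 for genes listed at 0, 0.493 from 0.1 to 1 RPKM, 0.721 from 1 to 10 RPKM, 0.824 from 10 to 100 RPKM and 0.847 at 100 RPKM or more. A ratio over 0.6 was found in 75.5% of the genes on and 20.1% of those under 1 RPKM. The letters TATAAA, on either strand anywhere in the window, occurred in 6.58% of the genes on and 19.8% of those under 1 RPKM, beside 13.0% of all promoters. Their share was lowest from 10 to 100 RPKM, at 5.68%, and was 10.4% at 100 RPKM or more. The letters GGGCGG, on either strand, occurred in 66.8% of the genes on and 46.6% of all promoters. A match is a description of letters and not of a bound factor. Of the 2940 promoters with TATAAA, 435 belonged to olfactory receptor genes, a family with 1017 of 1101 genes listed at 0. Whether the listed starts are starts of transcription was not tested.

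The pluripotency network did not follow the level classes that hold its genes. Its median CpG ratio was 0.546, and 12 of 35 promoters exceeded 0.6, 34.3%. This share was 83.8% of all genes at 100 RPKM or more, a class with 19 of the 35 network genes. It was 82.7% of all genes from 10 to 100 RPKM and 65.9% from 1 to 10 RPKM. Among the core markers the ratio was 0.179 in Nanog, 0.266 in Esrrb, 0.367 in Pou5f1 and 0.441 in Zfp42, and Sox2 with 0.792 was the exception, as its sequence printed above shows with 22 CG pairs in 200 bases. Other lists differed widely: 92.6% of the Polycomb promoters exceeded 0.6, 50% of the glycolysis promoters and 45% of the adhesion promoters. Hox genes, nearly all off, had a median of 0.681, and olfactory receptor genes one of 0.111. The upstream bases of Rpl8 (ratio 0.628) and Olfr985 (0.15) are shown as examples of a higher and a lower ratio, with GC box letters in capitals. Olfr985 is 1 of the 2 olfactory receptor genes on, at 5.23 RPKM, and not typical of its family in level. Its row has no intron, and whether its listed start is a start of transcription was not tested.
Rpl8 (chr15:76734301-76734500, plus strand): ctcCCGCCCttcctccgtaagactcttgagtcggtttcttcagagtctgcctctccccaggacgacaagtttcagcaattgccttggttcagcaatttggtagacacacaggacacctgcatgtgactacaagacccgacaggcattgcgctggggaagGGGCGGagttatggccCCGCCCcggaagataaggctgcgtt
Olfr985 (chr9:39935625-39935824, minus strand): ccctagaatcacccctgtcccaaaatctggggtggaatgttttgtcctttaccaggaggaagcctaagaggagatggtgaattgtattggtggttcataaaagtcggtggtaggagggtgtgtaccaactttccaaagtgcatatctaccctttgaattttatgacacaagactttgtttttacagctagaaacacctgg
The Rpl8 stretch holds 10 CG pairs and 3 GC box matches and that of Olfr985 holds 1 CG pair and none.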

How the data were processed

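Poly(A) RNA of 3 EB3 cultures was sequenced as paired ends with a kit that keeps no strand. The authors mapped the reads to mm9 with BWA at default settings (version not given in the sources used here), which does not split reads at exon junctions, summed exon coverage per gene with a custom pipeline, and deposited RPKM values with the cDNA length of each gene. The annotation release and the placing of reads with several equal positions are not given in the sources used here. Loss of junction reads and reads shared between copies can therefore lower or move levels. Per-sample columns that match no sample numbered 0, and the Sim2 clone columns were not used.

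No comparison between groups was made, so no test was run. Means, SDs, counts over lists and shares were computed with Python 3.11.15, pandas 2.3.3, numpy 2.4.6 and scipy 1.17.1, and the plots with matplotlib 3.10.9. Reads were recovered as RPKM times cDNA length times depth. A gene was on at a mean of at least 1 RPKM and off under 0.1 RPKM. The length trend was a polynomial of degree 3 on log2 cDNA length. It was fitted in each library to the deviation of log2 RPKM from the gene's mean over the 3 libraries. Transcripts (GENCODE M1) were cut into 50-base stretches every 3 bases and searched in the NCBIM37 genome on both strands with numba 0.67.0. Promoter letters were read from that genome at the listed starts, because 70.7% of the genes on matched the RefSeq promoter table by symbol. The counting steps were tested on simulated data.

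Named genes were the 5 markers, the 30 most abundant, the 5 highest and 3 highest under 1 RPKM of each list that was mostly on, the 3 highest of each list mostly off and of each family, the 10 least and 10 most variable genes at 10 RPKM or more, the checks of the line, and the 3 genes on each side of the threshold. Other genes of the lists were named for their role after their values were seen. The genes, lists and families were chosen with earlier results of these data known. Alternatives left out single libraries, changed the threshold or pseudocount, or counted reads. The 3 cultures are repeats of 1 line, and SDs measure the spread between them. Some genes that the rule names are not reported here.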

Additional observations from a re-analysis of the deposited data

How the results depend on the processing

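The count of genes on ran from 10422 (threshold of 2 RPKM) to 12813 (TPM scale), and from 11562 to 11605 without single libraries. All 35 pluripotency genes stayed on under each threshold and library alternative. At 2 RPKM 12 lineage genes were on, in place of 19. In reads, the first 10 genes held 3.20%, the first 100 genes 12.9% and the ribosomal protein genes 2.24%, since long transcripts then weigh more. Without single libraries the median SD of log2 RPKM ran from 0.048 (without EB3-0) to 0.19, and the share of genes within 1.5-fold from 84.96% to 98.9% (without EB3-0). That share was 90.1% at 10 RPKM. The median CpG ratio of genes on was 0.827 at 10 RPKM, 0.847 at 100 RPKM and 0.787 to 0.788 without single libraries, and the share with TATAAA was 6.29%, 10.4% and 6.57% to 6.60%. With RefSeq GRCm38 promoters matched by symbol, an alternative chosen after seeing the data, they were 0.781 and 6.35%. Of 331 named genes 8 crossed 1 RPKM under an alternative, among them Cbx8 and Eno2, and Dkk1, Dll4 and Col9a2 moved by over 1.5-fold, Col9a2 from 1.98 to 1.31 RPKM without EB3-0. No paired analysis was possible because no groups were compared. Depth limits low levels, as 0 reads over all 3 libraries allow up to 0.0187 RPKM in a cDNA of 2 kb.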

Other observations

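Aminoacyl-tRNA synthetase genes, whose enzymes load amino acids onto tRNA, ranged from 49.6 to 208 RPKM over all 17 members, a narrower range than that of the ribosomal protein genes. Of 58 genes for translation initiation factors 54 were on. Of 345 solute carrier genes 181 were on (52.5%, beside 51.3% of all listed genes), led by Slc25a5, the ADP/ATP carrier of mitochondria, at 729.8 RPKM. Of 95 potassium channel genes 14 were on, and of 45 genes for glutamate and GABA receptors 4. In the X-linked Rhox cluster 5 of 29 homeobox genes were on, and of 20 Mage genes 5.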
